A study of Sus scrofa domesticus with 2 samples.

Results

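The cells described here were lung endothelial cells with the highest share of transcripts from TOP2A, UBE2C, CENPF and CDK1, a pattern labelled as G2. They came from a library of endothelial cells that had been grown in culture after enzymatic digestion of a single perfused lung leaf of a domestic pig (Sus scrofa domesticus). A second library held endothelial cells cultured from the aorta near the lung. Both were made with 10x Genomics 3′ chemistry, in which each captured transcript is counted once by a unique molecular identifier (UMI). The cells of both libraries were kept in DMEM with 10% fetal calf serum, with no treatment named, and the number of pigs behind each culture is not stated in the sources used here. Pigs that gave tissue for single-cell libraries were crosses of Landrace, Large White and Duroc at 6 months of age. Within an atlas of pig tissues, the cultures served to look at endothelial cells that take on mesenchymal features, and serum culture limits them as a model of the resting vessel wall.

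A lung cell was kept when it held more than 200 and fewer than 5000 detected genes, under 30% of its UMIs from the 13 protein-coding mitochondrial genes, at least 3 UMIs of PECAM1 and at most 2 UMIs of COL1A1 and COL1A2 together. These steps left 5763, 5682, 5245 and 5169 of the 5946 lung cells in turn. For each kept cell, A was the percentage of its UMIs that came from TOP2A, UBE2C, CENPF and CDK1, and the 620 cells in the top 12% by A were the members. They were 620 of the 7131 cells of the whole series, and were compared with the other 4549 kept lung cells. There was 1 library per tissue and no replicate, so no test between cells is given. Levels are UMIs of a gene per 1000000 summed UMIs of a set of cells (CPM), and the 95% intervals cover counting error only.

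In G2 a cell has finished copying its DNA and prepares to divide. Cyclin B and CDK1 build up, the condensins and TOP2A fold and untangle the chromosomes, and the mitotic kinases PLK1 and the Aurora kinases drive entry into mitosis and the assembly of the spindle. The anaphase promoting complex, first with CDC20 and later with FZR1, then marks cyclins and securin for destruction. Endothelium in a healthy vessel rarely divides, whereas cultured endothelial cells in serum pass through this cycle often.

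The values that chose the members are given here as a description only. A was 0.135208% in the lowest member and 0.135166% in the highest non-member, so that the cut fell inside a continuous range. The 10th member above the cut stood at 0.137% and the 10th cell below it at 0.133%. The median member had an A of 0.214% and a median of 28 UMIs of the 4 genes. In the median non-member A was 0.00955%, and 2027 of the 4549 non-members held no UMI of any of them. UMIs of all 4 genes were found in 511 members (82.4%) and in 290 other kept cells (6.38%). When A was made without 1 of the genes, between 558 and 599 of the 620 cells chosen were members. The gene left out was 5.76-fold higher in the chosen cells for CDK1 and at least 8.35-fold higher for each of the others. The chosen cells were mostly the same ones, so these folds describe the rule and do not test it.

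CDCA3 was the given marker that the rule did not use. It goes with the rule genes in the cycle, so its values describe the members and do not test the label. CDCA3 takes part in the breakdown of the mitosis inhibitor WEE1, and its level was 102 CPM in members against 18.3 CPM in the other kept cells, 5.56-fold higher (95% interval 5.03 to 6.14). A CDCA3 UMI was present in 417 of 620 members (67.3%, exact 95% interval 63.4% to 70.9%), in 13.7% of the other kept cells and in 8 of 490 resting cells (1.63%). Resting cells were the kept cells with no UMI of the rule genes, of 8 replication genes or of CDC20, CCNB1 and PLK1. Members were more deeply covered, so the shares were also taken after each cell of 5000 or more UMIs had been thinned to 5000. The shares were then 34.6% of 578 members, 7.58% of 4312 other cells and 0.943% of 424 resting cells. The share with a CDCA3 UMI was therefore larger in members at matched depth as well. The thinning left out 42 members, 237 other cells and 66 resting cells. The rule genes and CDCA3 are all made in both G2 and mitosis, and the transcripts did not separate the 2 phases.

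CDCA3 also followed A in steps. Cells with an A of 0 held 5.48 CPM of CDCA3, and 3 equal groups of the remaining non-members, in order of A, held 12.4, 21.5 and 45.5 CPM. The 4 equal groups of members held 78.3, 91.7, 111 and 127 CPM. PCNA, the sliding clamp of the replication fork, did not follow A in this way. Its level was 45.8 CPM at an A of 0, reached 213 CPM in the non-members just below the cut, and was 136, 144, 100.2 and 80.0 CPM in the 4 groups of members. The plot of levels by A shows both courses.

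**Figure D1:**
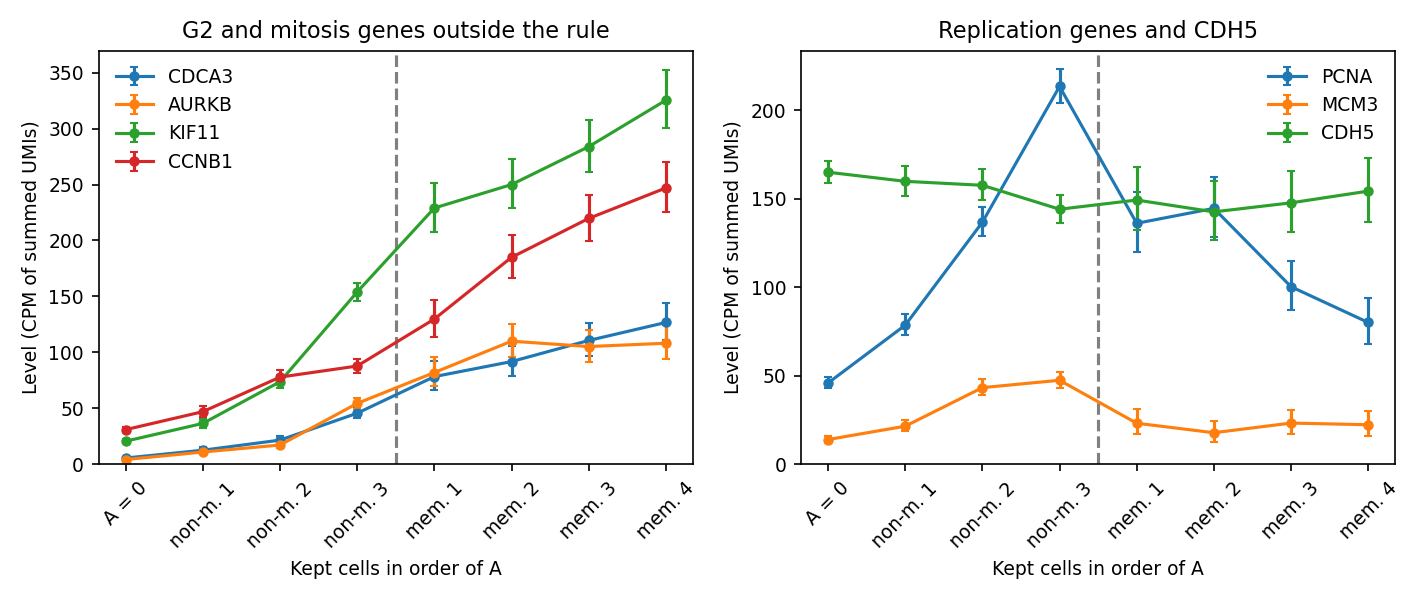
Level of single genes (CPM of summed UMIs, linear axes from 0) in kept lung cells put in order of A: cells with an A of 0, 3 groups of the other non-members and 4 groups of members, with 95% Poisson intervals. CDCA3, AURKB, KIF11 and CCNB1 are higher right of the dashed cut than left of it, PCNA is highest at 213 CPM just left of the cut, and CDH5 stays between 142 and 165 CPM.

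The 620 members held 7844312 UMIs and the other kept cells 43614978. The median UMI count per cell was 12926.5 in members, with quartiles of 11091.5 and 14663.5, against 9145 in the other kept cells, a ratio of 1.41. The median number of detected genes was 3578 against 2838, and after thinning to 5000 UMIs it was 2013.5 against 1959. The mitochondrial share had a median of 4.84% in members and 5.47% in other kept cells. Because CPM divides by the total, a gene at an equal CPM had more UMIs per cell in members. On the scale of mean UMIs per cell the median of all genes lay 0.41 (log2) higher than on the CPM scale. That median was taken over 6296 genes, against 5756 on the CPM scale, as the floor differed. For a single gene the change of scale adds the same amount to every log2 fold. It can change a sign but not the order of genes. What lay behind the larger UMI content was not tested.

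Promoter stretches of a few genes are printed here because the genes of G2 are known to share CCAAT boxes and a TTTGAA element near their start. The stretches are the 200 bases before the RefSeq start of the gene on Sscrofa11.1, 5′ to 3′ on the strand of the gene. Capitals mark the element TTTGAA or its palindromic form, spelled TTCGAA, the box CCAAT, and the E2F-like letters GGCGGGAA, on either strand (reverse matches of the last 2 read ATTGG and TTCCCGCC). CDCA3 is the marker outside the rule, INCENP and FAM83D had high folds, KPNA2 is a nuclear importin that was high in members, and MCM3 is a replication gene that was not. These genes were chosen after their values and motifs were seen.
CDCA3 (chr5:63858705-63858904, + strand): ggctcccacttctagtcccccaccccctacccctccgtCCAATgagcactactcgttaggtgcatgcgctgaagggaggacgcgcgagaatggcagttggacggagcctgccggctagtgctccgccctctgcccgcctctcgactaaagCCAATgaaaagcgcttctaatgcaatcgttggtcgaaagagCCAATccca
INCENP (chr2:9445826-9446025, − strand): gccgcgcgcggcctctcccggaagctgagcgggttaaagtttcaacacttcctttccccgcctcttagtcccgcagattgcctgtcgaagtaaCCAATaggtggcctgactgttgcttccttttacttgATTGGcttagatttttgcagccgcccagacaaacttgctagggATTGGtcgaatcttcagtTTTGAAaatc
FAM83D (chr17:41868782-41868981, + strand): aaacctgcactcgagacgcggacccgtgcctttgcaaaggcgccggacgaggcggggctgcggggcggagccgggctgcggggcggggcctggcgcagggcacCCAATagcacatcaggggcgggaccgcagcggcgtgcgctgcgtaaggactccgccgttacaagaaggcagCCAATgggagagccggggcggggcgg
KPNA2 (chr12:14282892-14283091, + strand): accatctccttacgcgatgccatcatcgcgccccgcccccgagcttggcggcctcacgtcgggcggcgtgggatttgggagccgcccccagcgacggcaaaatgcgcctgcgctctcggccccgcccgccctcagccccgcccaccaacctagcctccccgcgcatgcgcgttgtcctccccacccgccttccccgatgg
MCM3 (chr7:46104426-46104625, − strand): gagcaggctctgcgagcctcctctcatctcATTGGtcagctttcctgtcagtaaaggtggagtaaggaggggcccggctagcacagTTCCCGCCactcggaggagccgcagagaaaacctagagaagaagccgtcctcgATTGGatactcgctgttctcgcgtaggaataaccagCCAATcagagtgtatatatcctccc

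CDCA3 held CCAAT at 3 places, beginning 162, 50 and 9 bases before the start. INCENP held 3 CCAAT matches, 2 of them on the other strand, and a TTTGAA that began 10 bases before its start. No match of the 4 motifs lay in the stretch of KPNA2, which says only that these letters were not in this window. The search over the full windows, from 250 bases before to 50 bases after the start, was run on both strands for 19531 protein-coding genes. A window counted for a motif however often it held it, and matches of different motifs overlapped in 24 windows.

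TTTGAA or TTCGAA was found in 46 of the 111 windows of the G2 and mitosis lists described next (41.4%), in 10 of 45 windows of the S phase list (22.2%) and in 15.6% of all windows. CCAAT was found in 62.2%, 60.0% and 35.4% of the same sets. GGCGGGAA, a letter form bound by E2F factors, was found in 4.50%, 24.4% and 3.51%. Both a CCAAT and a TTTGAA or TTCGAA lay in 33.3% of the windows of the G2 and mitosis lists and in 6.14% of all windows. These are counts of letters, not of binding sites, and RefSeq starts may differ from the starts used in these cells.

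Genes with 20 CPM or more in members or in the other kept cells were compared, 5756 in all without the 4 rule genes. Of these, 153 were at least 2-fold higher in members (2.66%) and 5 were at least 2-fold lower (0.0869%), and the median log2 fold was 0.01. The number of higher genes was 268 against non-members with an A of 0, 312 on the scale of UMIs per cell and 85 with a floor of 50 CPM. Genes of the cycle lists made up 85 of the 153, another 60 had a symbol and lay outside these lists, and 8 had an identifier only. On 5 lists of genes of G2 and mitosis, 112 genes were compared, of which 79 were at least 2-fold higher, 0 were lower, and the median log2 fold was 1.54. None of the 112 had a log2 fold below 0. The rule used TOP2A, UBE2C, CENPF and CDK1 of the same cells, so the direction of genes that go with them in the cycle is a description of the members, not a test of the rule.

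**Figure D2:**
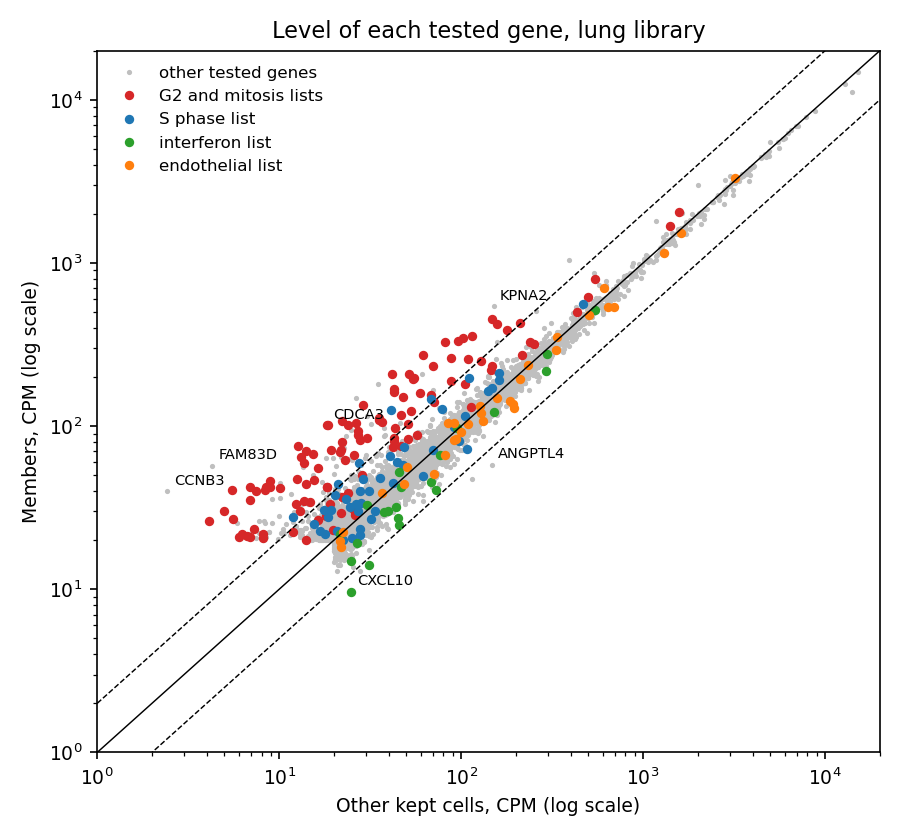
Level of each compared gene in members against the other kept lung cells (CPM, both axes logarithmic), with the line of equal level and dashed lines at 2-fold. Genes of the G2 and mitosis lists lie above the line of equal level in all 112 cases, S phase genes lie nearer to it, interferon genes such as CXCL10 lie mostly below it, and endothelial genes lie along it.

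Among the kinases and cyclins of G2, 19 of 22 compared genes were at least 2-fold higher in members, against 2.66% of all compared genes. The median log2 fold of this list was 1.73. PLK1, the kinase that triggers mitotic entry, stood at 30.1 CPM in members and 4.98 CPM in the other kept cells (6.05-fold, 5.01 to 7.30). AURKB, the kinase of the chromosomal passenger complex, stood at 101 against 18.5 CPM (5.49-fold, 4.97 to 6.06). A UMI of AURKB was seen in 69.8% of members, in 13.3% of the other cells and in 0.612% of resting cells. GAS2L3, which links microtubules and actin in cytokinesis, had the largest fold of this list, with 26.3 against 4.13 CPM (6.36-fold). The cyclins CCNB2 and CCNB1 were 4.27-fold and 3.57-fold higher, and CKS2, a small partner of CDK1, had the highest level of the list at 359 against 115 CPM. The exceptions were WEE1, the kinase that holds CDK1 inactive, at 1.77-fold, the transcription factor MYBL2 at 1.58-fold and the S phase kinase CDK2 at 1.15-fold.

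Spindle and cytokinesis genes gave the highest median, 1.81 on the log2 scale, and 29 of 32 were at least 2-fold higher (2.66% of all compared genes). KIF18A, a kinesin that shortens kinetochore microtubules, was 6.12-fold higher (42.1 against 6.88 CPM). CKAP2L, DEPDC1B and ASPM, an organizer of spindle poles, were 5.20-, 5.15- and 5.04-fold higher. The spindle assembly factor TPX2 stood at 346 against 102 CPM, and NUSAP1, which bundles microtubules, at 329 against 81.3 CPM. A lower fold was seen for KIF20A (1.75), STMN1 (1.46) and JPT1 (1.27). Of 6 tubulin genes only TUBB6 reached 2-fold, at 330 against 157 CPM. TUBA1B, at 3000 CPM in members and 2009 CPM in other cells, was 1.49-fold higher.

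For centromere and kinetochore genes, 16 of 25 were at least 2-fold higher, against 2.66% of all compared genes, with a median log2 fold of 1.22. INCENP, the scaffold of the passenger complex, stood at 40.7 against 5.50 CPM (7.39-fold, 6.23 to 8.77), the largest fold on any of the 5 lists. Its partners CDCA8 and BIRC5 were 5.00-fold and 2.15-fold higher. The shugoshins SGO1 and SGO2, which protect cohesion at the centromere, were 5.96-fold and 4.84-fold higher. The motor CENPE had 263 against 88.0 CPM. The constitutive centromere proteins CENPM, CENPU, CENPW and CENPH were between 1.43-fold and 1.64-fold higher, and SPC24 was 1.37-fold higher at 327 against 239 CPM. 

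Of the anaphase promoting complex and its partners, 4 of 10 were at least 2-fold higher, against 2.66% of all compared genes. The 4 were CDCA3, the inhibitor FBXO5 (2.31-fold), the activator CDC20 (2.26-fold) and the ubiquitin-conjugating enzyme UBE2S (2.18-fold). Core subunits stood closer to the other cells, with ANAPC1, CDC27, ANAPC5, CDC16 and ANAPC7 at 1.76-, 1.61-, 1.33-, 1.24- and 1.16-fold. FZR1, the later activator, was 1.66-fold higher. On the list of chromosome condensation and chromatin, 11 of 23 genes were at least 2-fold higher, with a median log2 fold of 0.98. Subunits that belong to the condensin complexes had the larger values: NCAPH 4.90-fold, NCAPD2 4.85-fold, NCAPG 3.76-fold, SMC4 2.66-fold and SMC2 2.05-fold. Cohesin subunits had smaller ones, RAD21 at 1.95-fold, SMC3 at 1.27-fold and STAG2 at 1.17-fold. Abundant chromatin proteins differed little, as shown by HMGB1 at 1681 against 1412 CPM and H2AFZ at 2051 against 1573 CPM.

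Replication genes differed less than those of G2 and mitosis. Of 46 compared genes of S phase, 5 were at least 2-fold higher, where 2.66% of all genes were, 37 had a log2 fold above 0, and the median log2 fold was 0.34 (0.74 on the scale of UMIs per cell). The count depended on the cells and scale used: it was 27 against non-members with an A of 0, where the median was 1.09, 17 on the scale of UMIs per cell, and 1 when only cells of 10000 or more UMIs or the top 8% by A were taken. The list summed to 3709 CPM in members and 1117 CPM in resting cells, which were chosen to lack 8 of its genes. The 5 genes were DBF4, the activator of the replication kinase CDC7 (3.06-fold), the repressor E2F8 (2.34-fold), the helicase factor CDC45 (2.16-fold), the thymidine kinase TK1 (2.13-fold) and RAD51AP1 of recombination repair (2.11-fold). The MCM helicase subunits had folds from 0.77 for MCM3 (0.65 to 0.91) to 1.27 for MCM2 (1.12 to 1.44). PCNA was at 115.5 CPM in members and 104.5 CPM in the other cells. The summed level of the 8 replication genes used to mark S phase was 403 CPM in members and 393 CPM in the other kept cells, against 1103 CPM in the 620 non-members with the highest share of them, called the S group here. The S group was picked by these genes, so its level is a description. FAM111A, a protease of the replication fork, was 1.49-fold lower in members (72.2 against 107 CPM).

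The other kept cells included dividing cells, so the members were also compared with 2 further sets of non-members. The late group was the 620 non-members outside the S group with the highest share of CDC20, CCNB1 and PLK1. Both groups were chosen by measured genes, and their levels are set beside those of the members without a test. The late group had a median of 7956 UMIs per cell, and the members had 1.62 times that number; the S group had a median of 10571 UMIs. Of the 620 kept cells with the highest late share, 206 were members (33.2%), and of the 620 with the highest share of the replication genes 45 were members (7.26%), where members made up 12% of all kept cells.

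Several genes that were high in members were low in the late group. KPNA2, an importin that carries proteins into the nucleus, stood at 542 CPM in members, 123 CPM in the late group, 238 CPM in the S group and 105 CPM in resting cells. The CDK1-activating phosphatase CDC25B stood at 71.9 CPM in members and 21.3 CPM in the late group. INCENP and KIF18A were both at 7.37 CPM in the late group, against 40.7 and 42.1 CPM in members. CKAP2L stood at 46.4 against 6.59 CPM, and NCAPH at 64.8 against 11.6 CPM. FBXO5, which restrains the anaphase promoting complex until mitosis, was at 42.2 CPM in members, 3.10 CPM in the late group and 56.9 CPM in the S group.

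Other mitotic genes were close in the members and the late group. BUB1B, of the spindle checkpoint, stood at 151 and 140 CPM. DLGAP5 stood at 331 and 284 CPM, CENPE at 263 and 224 CPM, and UBE2S at 391 and 374 CPM. The kinesin KIF20A, which acts in cytokinesis, was at 49.97 CPM in members and 61.4 CPM in the late group. The late group thus shared part of the mitotic program with the members but held less of the genes named in the paragraph before. It was drawn from non-members, and its median A was 0.0149% against 0.214% in members. The cut itself therefore favours lower levels there of genes that go with the rule genes. The plot of the 4 sets of cells shows both patterns.

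**Figure D3:**
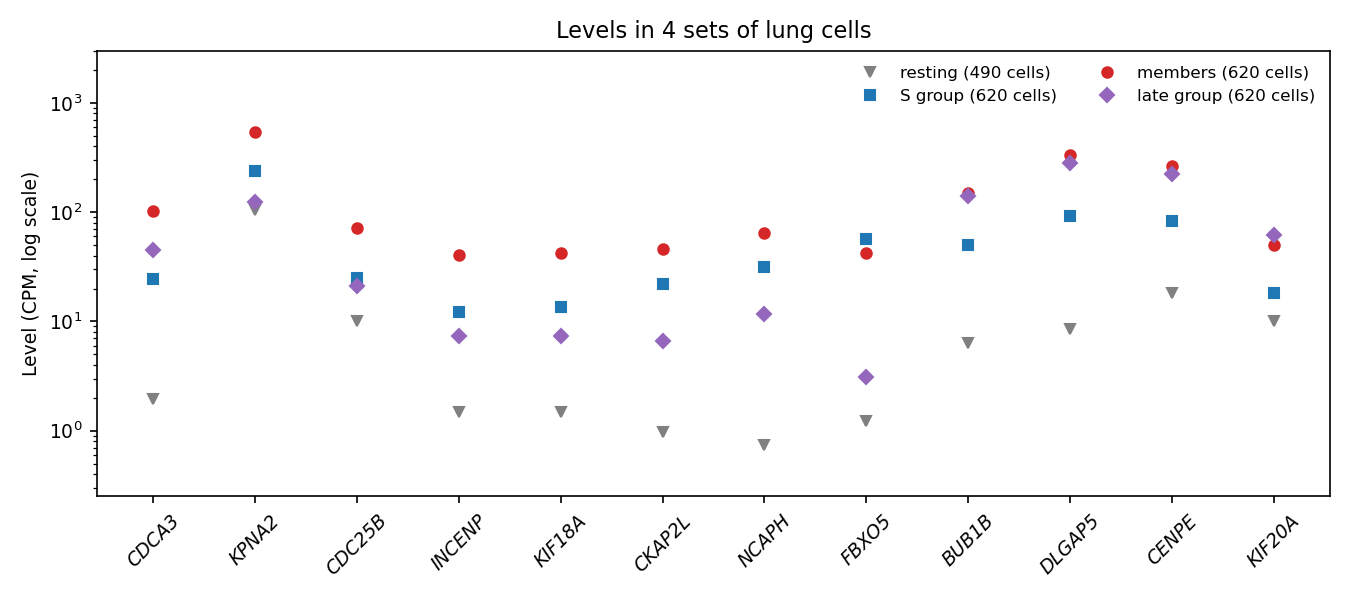
Level (CPM of summed UMIs, logarithmic axis) of 12 genes in resting cells, the S group, the members and the late group of the lung library. KPNA2, CDC25B, INCENP, KIF18A, CKAP2L and NCAPH have their highest level in members, FBXO5 is highest in the S group at 56.9 CPM, and BUB1B, DLGAP5, CENPE and KIF20A are close in members and the late group.

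Members also differed among themselves. They were put in order of their share of CDC20, CCNB1 and PLK1 and split into terciles of 207, 207 and 206 cells, called early, middle and late. The median UMI counts per cell were 12489, 12930 and 13546. Of 5849 genes compared between the late and the early tercile, 10 were at least 2-fold higher (0.171%) and 10 were at least 2-fold lower (0.171%). Few genes thus reached 2-fold within the members.

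By the naming rule, histones led the genes lower in the late tercile. H2AC20, a core histone gene, went from 134 to 81.3 and 52.1 CPM across the early, middle and late terciles. The linker histones HIST1H1E (97.7, 63.8 and 41.3 CPM) and HIST1H1D (168, 135 and 78.5 CPM) ran the same way. UMIs of H2AC20 were found in 132 of 207 early and in 64 of 206 late cells. Histone genes are known to be made mostly while DNA is copied. The S group held 102 CPM of H2AC20, 64.0 CPM of HIST1H1E and 148 CPM of HIST1H1D, each below the early tercile. What lay behind the histone levels of the early tercile was not tested. PCNA was 1.67-fold lower in the late tercile (152 against 91.2 CPM), and FBXO5 was 1.65-fold lower. ADM, which codes for the vasodilator adrenomedullin, was 1.66-fold lower, and TAF3 and DUSP11 were 1.62-fold and 1.61-fold lower.

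Of the 10 genes at least 2-fold higher in the late tercile, 2 were on the cycle lists, KIF20A and BORA, and the others included REEP4, the leukocyte gene LYZ and the interferon regulator IRF7. BORA, LYZ and IRF7 are named after their values were seen. KIF20A stood at 31.5, 52.9 and 64.0 CPM across the terciles (2.03-fold, 1.55 to 2.69), and REEP4, which clears membrane from chromosomes in mitosis, at 31.1, 55.2 and 62.5 CPM (2.01-fold, 1.53 to 2.67). KNSTRN, CDC25B and BUB1B were 1.82-, 1.81- and 1.79-fold higher, and RPAP3, an assembly chaperone of RNA polymerase, was 1.65-fold higher. The chemokine CCL5 was 2.28-fold higher by level, but its UMIs were found in 16 early and 13 late cells, and a single late cell held 148 of the 297 UMIs. ISG15, an interferon-stimulated protein, was 1.97-fold higher, with UMIs in 132 early and 142 late cells. For these 2 genes the level therefore followed UMIs per cell and not the number of cells. A single member of the late tercile held 93 of its 94 LYZ UMIs and all of its C1QA and PTPRC UMIs. LYZ had 0 UMIs in the early tercile, so its place among the 10 genes rests on that cell. The leukocyte genes summed to 17.0 CPM in the early and 75.9 CPM in the late tercile. The part of that cell in the levels of the other genes named here was not tested. CDCA3 was at 82.8 CPM in the early and 117 CPM in the late tercile.

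**Figure D4:**
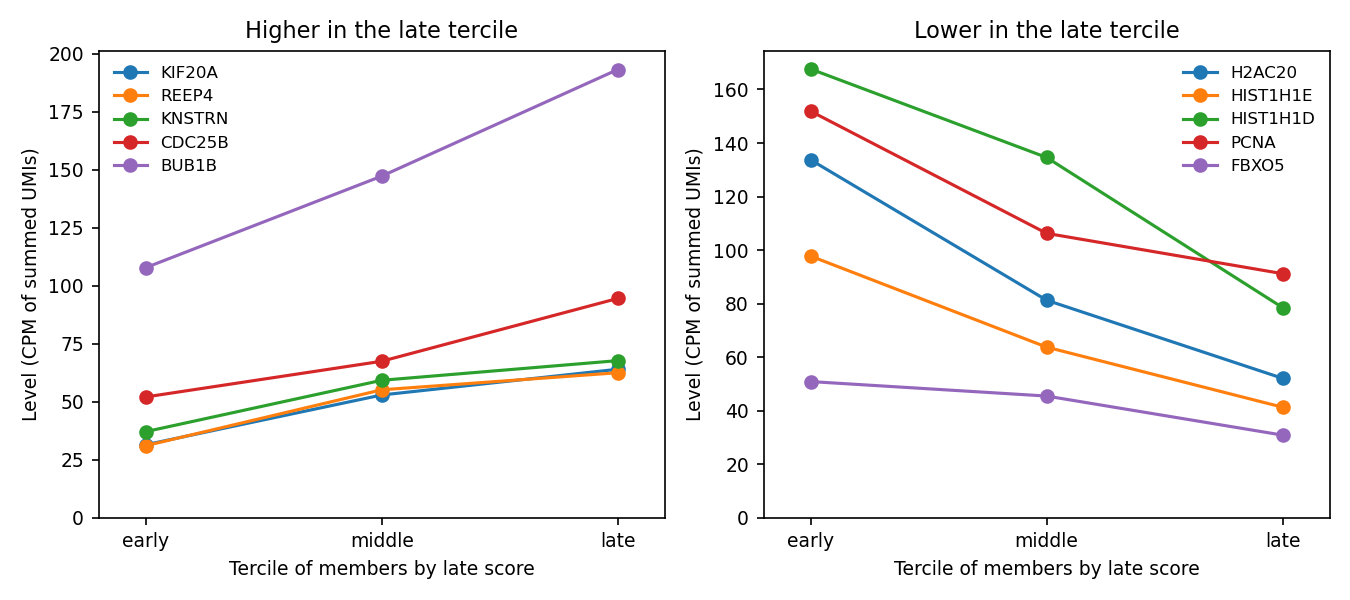
Level (CPM of summed UMIs, linear axes from 0) of 10 genes in the early, middle and late terciles of the members, ordered by the share of CDC20, CCNB1 and PLK1. KIF20A, REEP4, KNSTRN, CDC25B and BUB1B are higher in the late than in the early tercile, and H2AC20, HIST1H1E, HIST1H1D, PCNA and FBXO5 are lower.

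Outside the cycle lists, the largest folds belonged to CCNB3 and FAM83D. FAM83D, which brings casein kinase to the spindle, stood at 57.2 CPM in members and 4.29 CPM in the other kept cells (13.4-fold, 11.2 to 15.9), at 6.69 CPM in the S group and 6.40 CPM in the late group. Its UMIs were found in 45.3% of members and 3.74% of the other cells, and after thinning in 24.0% and 1.81%. CCNB3, a B-type cyclin known best from meiosis, was at 39.9 against 2.43 CPM (16.4-fold, 13.1 to 20.7), with UMIs in 36.6% and 2.15% of the cells. It was below the 50 CPM set for naming genes outside the lists and is named because of its fold, after its values were seen. RefSeq places CCNB3 on chromosome X from 43922729 to 43988939 and FAM83D on chromosome 17 from 41868982 to 41892222 of Sscrofa11.1.

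The other genes named by rule outside the lists had smaller folds. KPNA2 was 3.59-fold higher (542 against 151 CPM). SHCBP1, which acts at the midbody, was 3.77-fold higher, the ubiquitin ligase G2E3 3.505-fold, REEP4 3.27-fold, and SPDL1, which recruits dynein to kinetochores, 3.23-fold. MTFR2, PRR11 and TRIM59 were 3.25-, 3.24- and 2.97-fold higher. BBS7, a part of the coat that moves cargo into cilia, was 3.81-fold higher (94.97 against 24.9 CPM). The A-type cyclin CCNA2 and the proliferation marker MKI67 were not among the named features and were not analysed here. Of the features known only by an identifier, ENSSSCG00000007493 (150 against 26.4 CPM) and ENSSSCG00000026302 (182 against 34.9 CPM) had the largest folds.

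The 5 genes at least 2-fold lower in members were CXCL10, ANGPTL4, SLPI, RSAD2 and TMEM40. On the scale of UMIs per cell none of them passed 2-fold, with log2 folds of −0.96, −0.94, −0.87, −0.73 and −0.70 in that order. ANGPTL4, an inhibitor of lipoprotein lipase, stood at 58.0 CPM in members and 147 CPM in other cells (2.54-fold lower, 2.31 to 2.80), with UMIs in 39.4% and 57.1% of the cells. SLPI, a protease inhibitor, stood at 47.6 against 115 CPM (2.42-fold lower), with UMIs in 27.7% and 31.5% of cells. CXCL10, a chemokine, was at 9.69 against 24.9 CPM, but was found in 14 members and 115 other cells. Its 76 UMIs in members and 1084 in the others thus came from under 3% of each set. The levels of these genes were higher in resting cells than in members, ANGPTL4 at 227 CPM, SLPI at 254 CPM and CXCL10 at 57.8 CPM. Low levels were not particular to the members. SLPI stood at 49.9 CPM in the S group and 53.1 CPM in the late group. RSAD2 stood at 14.2 CPM in members, 32.8 CPM in the S group and 12.6 CPM in the late group. ANGPTL4 was at 118 and 90.9 CPM in the S and late groups, CXCL10 at 23.0 and 14.7 CPM, and TMEM40 at 18.5 and 15.7 CPM.

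Further genes lower by the naming rule were MSH6 of mismatch repair (1.78-fold), IFIT1 (1.78-fold), the sterol enzymes MSMO1 (1.72-fold) and CYP51A1 (1.55-fold), complement factor D, CFD (1.63-fold), the protease inhibitor TIMP3 (1.63-fold), ZFC3H1 (1.57-fold) and WWTR1, the YAP partner TAZ (1.56-fold). MSH6 had its highest level in the S group, at 137 CPM against 34.7 CPM in members. CFD stood at 38.0 CPM in members, 39.4 CPM in the S group and 36.8 CPM in the late group. TIMP3 stood at 42.6, 56.9 and 36.2 CPM in the same sets. Of 21 interferon-stimulated genes, 0 were at least 2-fold higher and 2 (CXCL10 and RSAD2) lower, against 2.66% and 0.0869% of all compared genes. The median log2 fold of the 21 genes was −0.39. Their summed level was 1794 CPM in members, 2143 CPM in other kept cells and 3433 CPM in resting cells. It was 1738 CPM in the S group and 1688 CPM in the late group. The lower level was thus not particular to the members. On the scale of UMIs per cell the median of this list was 0.01, where the median of all compared genes was 0.42. The sign of the list median thus depends on the scaling to the total. Its place below the median gene is not a second result, because the change of scale adds the same amount to every gene.

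Of 17 genes of cholesterol synthesis, 0 were 2-fold higher or lower, against 2.66% and 0.0869% of all compared genes. On this list 4 genes had a log2 fold above 0, with a median of −0.25. The median was −0.07 for 16 glycolysis genes, −0.05 for 8 immediate early genes, −0.01 for 18 targets of YAP and TGF-beta and −0.02 for 56 ribosomal protein genes. For 14 genes of arrest and the p53 response it was 0.04. The kinase inhibitors CDKN2C and CDKN1B were at 1.95-fold and 1.60-fold, and the phosphatase CDKN3 at 1.75-fold. The median of 5 G1 cyclins and kinases was −0.22. Cyclin D2 (CCND2) was 1.45-fold lower in members, at 106 against 153 CPM, and had a log2 fold of −0.13 on the scale of UMIs per cell. On the scale of UMIs per cell the medians of the cholesterol, glycolysis, immediate early, YAP, ribosomal and G1 lists were all above 0. They were below the 0.42 that all compared genes had on that scale, which follows from their place on the CPM scale.

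Endothelial transcripts in members stood near their level in the other kept cells. Every kept cell had passed the filter on PECAM1, which favours this. The genes of the endothelial list summed to 11271 CPM in members and 11831 CPM in other kept cells. The sum was 10833 CPM in the S group, 11208 CPM in the late group and 13478 CPM in resting cells. Of 48 endothelial genes among the features, 32 were compared. Of these, 0 were 2-fold higher or lower, against 2.66% and 0.0869% of all compared genes. The median log2 fold of the 32 was −0.12 (0.28 on the scale of UMIs per cell, where all compared genes had 0.42). PECAM1, the junction protein used to keep the cells, was at 1530 against 1613 CPM. VCAM1, an adhesion receptor for leukocytes, was at 3333 against 3214 CPM, CAV1 of caveolae at 1159 against 1299 CPM, and EDN1, the vasoconstrictor endothelin-1, at 706 against 611 CPM. Of the junction and adhesion genes, CDH5 was at 148 against 158 CPM.

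The largest endothelial differences were modest. CLEC14A was 1.24-fold higher (1.15 to 1.34), EDN1 1.16-fold and the Notch target HEY1 1.14-fold. GJA5, the gap junction protein connexin 40 of arteries, was 1.51-fold lower (129 against 195 CPM), CAVIN2 1.41-fold lower and EMCN 1.39-fold lower. These 3 genes were also lower on the scale of UMIs per cell, with log2 folds of −0.19, −0.09 and −0.08. The other 16 endothelial genes were under 20 CPM in both sets. They included VWF at 0.25 against 0.44 CPM and the VEGF receptor KDR at 1.15 against 1.88 CPM, so that these defining endothelial transcripts were near absent from the members and from the other kept cells alike.

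Markers of other cells were low in members and in the other kept cells, apart from TAGLN and, to a lesser degree, FBLN1. All of these cells had passed the limit on COL1A1 and COL1A2 UMIs, which itself favours low fibroblast transcripts. The 12 mural genes summed to 994 CPM in members and 966 CPM in the other kept cells, almost all of it TAGLN, with DES, RGS5, ABCC9 and KCNJ8 at 0 in members. The 12 fibroblast genes summed to 115 and 113 CPM, mostly FBLN1, with MFAP5, LUM and COL6A2 at 0. The 8 epithelial genes summed to 0.382 and 0.986 CPM and the 5 lymphatic genes to 0.765 and 0.848 CPM. The 16 macrophage and leukocyte genes, all under 20 CPM, summed to 37.5 and 27.2 CPM, with CSF1R, CD3E and CD3D at 0. A single member of the late tercile held 93 of the 94 LYZ UMIs, all 8 C1QA UMIs and all 6 PTPRC UMIs found in members. Without the 6 kept cells that held 3 or more UMIs of 11 leukocyte genes, 619 of the 620 cells then chosen were the same, and 18 instead of 20 genes differed 2-fold between the terciles.

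The same rule was applied to the aorta library, with no upper limit on genes because the cells there held a median of 45594 UMIs. With the limit, 321 of the 1185 aorta cells passed the filter on genes and 75 passed all filters. It kept 399 aorta cells and chose 48, with a cut at 0.134%, close to the 0.135% of the lung. The chosen cells had a median of 67064.5 UMIs against 49102 in the other kept aorta cells, 1.37 times as many. Of 6087 genes, 182 were at least 2-fold higher (2.99%) and 20 lower (0.329%).

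Of the 153 genes higher in lung members, 146 were compared in the aorta, where 134 were at least 2-fold higher, 0 were lower and all 146 had a log2 fold above 0. The same 4 genes chose the cells in both libraries, so the rule itself favours this likeness. CDCA3 stood at 110 against 24.0 CPM in the aorta (4.57-fold, 3.93 to 5.31), CCNB3 at 60.7 against 3.37 CPM (18.0-fold), FAM83D at 51.6 against 3.19 CPM (16.2-fold) and KPNA2 at 552 against 160 CPM (3.44-fold). GJA5 was 2.01-fold and ANGPTL4 3.09-fold lower in the chosen aorta cells. PCNA was 1.73-fold higher there, with 1.60 to 1.87, above the lung interval of 1.03 to 1.19. CDC20 was 1.85-fold higher in the aorta, with 1.64 to 2.09, below the lung interval of 2.11 to 2.42. The intervals cover counting error only, and tissue, culture and library cannot be told apart in these comparisons.

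**Figure D5:**
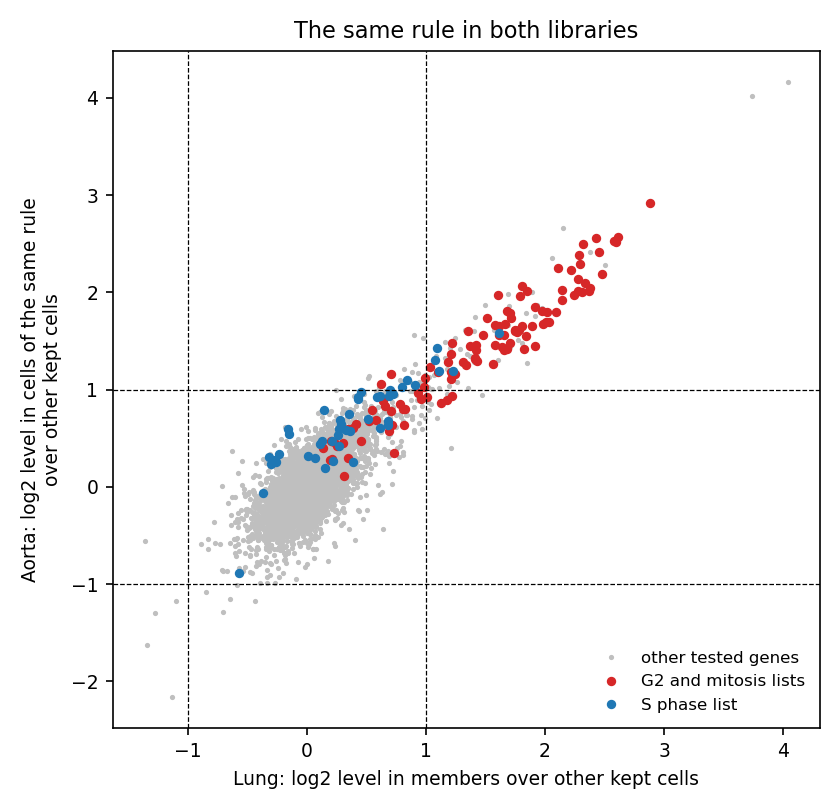
Log2 level of each gene in members over the other kept cells of the lung library, against the same for the 48 aorta cells chosen by the same rule, with dashed lines at 2-fold. Most genes of the G2 and mitosis lists lie at the upper right, past 2-fold in both libraries, and those of the S phase list mostly lie nearer to 0, with a median log2 fold of 0.34 in the lung and 0.61 in the aorta.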

How the data were processed

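Endothelial cells cultured from pig lung and aorta were profiled in 1 library each. The authors deposited UMI counts per gene and cell from Cell Ranger 3.0.2, not normalized, on Ensembl gene models of Sscrofa11.1. A feature known only by an identifier got a symbol from a gene name table where no other feature had it (1051 of 7821). This gave CDK1 its name. The lung library held 57213236 UMIs in 5946 cells and the aorta library 46080859 UMIs in 1185 cells. They shared 5 barcode sequences.

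UMIs were summed over the cells of a set, divided by the total and given as CPM, with exact Poisson intervals for levels, exact binomial intervals for folds and Clopper-Pearson intervals for shares, all at 95%. No test was made, as each tissue had 1 library. Genes needed 20 CPM in either set. Beyond the lists, 10 genes in each direction were named by fold among those at 50 CPM, and 8 in each direction between the terciles. Of each list the genes with the highest level or largest fold were named, and others were added after their values were seen. Members, lists and groups were chosen with earlier results of these data known. The late share used 3 genes, because AURKA was not among the named features. On simulated counts for members against other cells, over 5756 genes, all 200 changed genes were recovered and 95.4% of intervals held the true fold. The simulated counts had Poisson error only, with no differences between cells, and every planted fold was past 2-fold. The simulation therefore checks the calculation, and says nothing of how well the calls or intervals hold for these cells. Doublets were not removed: Scrublet (scanpy 1.11.5) called 0 of 5946 cells, a sign that it had not worked, and its scores were used only to drop the highest 5%. Promoters came from the RefSeq annotation of the same build. Python 3.11.15, NumPy 2.4.6, SciPy 1.17.1, pandas 2.3.3 and matplotlib 3.10.9 were used.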

Additional observations from a re-analysis of the deposited data

How the results depend on the processing

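The main results were recomputed under the alternatives fixed for each: other filters, cuts at 8% and 16%, A without each rule gene, thinned or deep cells, other comparison cells, other scales, other level floors and the removal of cells with high Scrublet scores. The number of members is set by the rule and says nothing of stability. With A made without 1 rule gene, 558 to 599 of the 620 cells chosen were members. The other rule genes stayed in A, and CDK1 gave 7.78% of the rule UMIs in members. This overlap therefore says little of stability. Against non-members with no UMI of the rule genes, 268 genes were at least 2-fold higher, 11 were lower, 27 S phase genes were higher, CDCA3 was 18.6-fold higher and the ratio of median UMIs was 1.496. With mean UMIs per cell and no scaling, 312 genes were higher, 0 were lower, 17 S phase genes were higher and CDCA3 was 7.34-fold higher. With only cells of 10000 or more UMIs, 8 genes were lower, 1 S phase gene was higher, CDCA3 was 4.76-fold higher and the ratio of median UMIs was 1.15. With a floor of 50 CPM, 85 genes were higher, 2 were lower, 51 G2 and mitosis genes and 3 S phase genes were higher, and with a floor of 5 CPM 31 genes were lower, as fewer or more genes were compared. With the top 8% as members, 1 S phase gene was higher. The cause of the other shifts was not tested. Leaving out cells with leukocyte transcripts, an alternative chosen after seeing the data, moved none of these results or the count of genes that differ between the terciles past 1.5 times or out of its interval. No paired analysis was possible because each tissue had 1 library and no numbered replicates. With 1 lung library, and the number of pigs and cultures behind it not stated, nothing here says how the values vary between animals or cultures. G2 and mitosis could not be separated by transcripts alone.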

Other observations

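Genes of the centriole and centrosome, the organelle that is copied during S phase and G2 and forms the spindle poles, were among the higher genes outside the cycle lists. A list of 65 such genes was made after this had been seen, so its counts are a description and not a test. Of its 35 compared genes, 13 were at least 2-fold higher in members, where 2.66% of all genes were, 0 were lower, 33 had a log2 fold above 0, and the median was 0.69. STIL, which starts centriole assembly, stood at 26.4 against 7.70 CPM (3.43-fold), and its partner SASS6, of the cartwheel, at 61.7 against 25.2 CPM (2.44-fold). CDK5RAP2, which recruits gamma-tubulin, was 3.30-fold higher, CCSAP 3.93-fold, CEP152 2.18-fold and CENPJ 2.07-fold. In the S group CEP152 stood at 27.5 CPM, against 25.9 CPM in members, SASS6 at 52.5 CPM and CENPJ at 30.4 CPM. STIL, CCSAP and CDK5RAP2 stood there at 18.4, 18.7 and 15.1 CPM. Raised levels of some of these genes were thus not particular to the members. The satellite protein PCM1 was at 117 against 110 CPM, and the centrins CETN2 and CETN3 were at 0.88-fold and 0.96-fold.

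Histone genes, which were lower in the late than in the early tercile, were higher in members as a whole than in other kept cells: HIST1H1D was at 126 CPM in members, 53.1 CPM in other kept cells and 8.09 CPM in resting cells, and HIST1H1E at 66.8, 29.9 and 12.5 CPM. MXD3, a partner of MAX, was at 45.1 against 10.2 CPM (4.44-fold), and was named after its value was seen.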
